A study of Mus musculus with 378 samples.

Results

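The 4 genes described here, Pdcd1, Lag3, Havcr2 and Tigit, encode the checkpoint receptors PD-1, LAG-3, TIM-3 and TIGIT, and were taken by name from a table of 23420 genes. They were followed through the kept cells among 374 single-cell libraries and through 4 population libraries from B16F10 tumours, a transplanted mouse melanoma, grown in C57BL/6 mice. The groups were 74 CD8 cells and 78 CD4 cells labelled as coming from Il27ra KO mice, and 67 CD8 cells and 79 CD4 cells labelled WT, each kept when at least 1000 genes were above 0. Each of these 4 groups also had 1 population library. Il27ra encodes the receptor chain specific for the cytokine IL-27, and the study asked about the part of IL-27 in the gene programme of tumour T cells. Age, sex and the number of animals are not given, and the protocol text names CD8 T cells alone, so the CD4 groups rest on the sample titles and on lineage genes. Each genotype and cell type is therefore 1 sample, and no test between groups was possible.

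Checkpoint receptors are inhibitory surface proteins that T cells put up after their antigen receptor has been triggered and that hold back further signalling when they meet ligands on tumour or antigen-presenting cells. In tumours, CD8 cells under lasting antigen exposure tend to carry several of them together, a feature of the state called exhaustion, and regulatory CD4 cells carry several as well. PD-1 recruits phosphatases to the antigen receptor, LAG-3 is a CD4-like protein that binds MHC class II, TIM-3 binds galectin-9 and CEACAM1, and TIGIT competes with the activating receptor CD226 for the ligand CD155.

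The 4 genes lie on different chromosomes and none overlaps another annotated gene (GENCODE M21 on GRCm38). Pdcd1 lies at chr1:94038305-94052553 on the minus strand, Lag3 at chr6:124904361-124911705 on the minus strand, Havcr2 at chr11:46454935-46481255 on the plus strand and Tigit at chr16:43648867-43664146 on the minus strand. The bases upstream of the annotated start are shown for Pdcd1, Havcr2 and Tigit because the receptor genes varied together from cell to cell. Each gene is read 5′ to 3′ on its own strand (RefSeq, GRCm38.p6). No promoter sequence of Lag3 was available, so Lag3 was not searched for motifs. Capitals mark matches to an AP-1 motif (TGANTCA) or a RUNX motif (TGTGGTT), searched on both strands in windows of 300 bases of which 250 lie upstream.
Pdcd1, chr1:94052554-94052803, minus strand: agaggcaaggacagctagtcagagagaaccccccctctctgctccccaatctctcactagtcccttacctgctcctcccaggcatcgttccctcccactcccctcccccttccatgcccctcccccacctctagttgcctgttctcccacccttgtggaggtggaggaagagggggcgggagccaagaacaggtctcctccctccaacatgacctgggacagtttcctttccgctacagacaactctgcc
Havcr2, chr11:46454681-46454930, plus strand: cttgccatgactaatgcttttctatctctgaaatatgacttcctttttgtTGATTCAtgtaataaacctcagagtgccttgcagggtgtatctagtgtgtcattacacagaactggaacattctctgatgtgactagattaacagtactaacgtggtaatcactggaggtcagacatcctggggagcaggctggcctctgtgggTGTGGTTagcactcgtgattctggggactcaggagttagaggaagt
Tigit, chr16:43664185-43664434, minus strand: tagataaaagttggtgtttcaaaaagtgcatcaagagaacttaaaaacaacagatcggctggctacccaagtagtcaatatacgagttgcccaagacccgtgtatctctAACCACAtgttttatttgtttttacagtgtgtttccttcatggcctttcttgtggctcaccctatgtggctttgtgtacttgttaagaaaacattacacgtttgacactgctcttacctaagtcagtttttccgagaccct
Havcr2 held an AP-1 match starting at -200 and a RUNX match at -46 from the gene start, and Tigit held a RUNX match on the opposite strand at -141. Over 32851 promoters, 7.81% held the AP-1 letters and 5.27% the RUNX letters. A STAT motif (TTCNNNGAA, in 8.30% of promoters) and an NFAT motif (TGGAAA, in 21.4%) had no match in these 3 windows. A match describes letters only, and its part in the levels below was not tested.

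The labels were checked first. The KO label did not come with less Il27ra RNA in single cells: the gene was above 0 in 52.7% of KO-labelled and 38.8% of WT CD8 cells, and in 52.6% of KO-labelled and 48.1% of WT CD4 cells. In the population libraries it was at 90.8 FPKM in KO-labelled and 47.6 FPKM in WT CD8, but at 95.2 FPKM in KO-labelled and 255.97 FPKM in WT CD4. The table has 1 value per gene, so it cannot show which exons were read, and every KO direction given here follows the label alone. Cd8a was above 0 in 94.6% and 83.6% of the KO-labelled and WT CD8 cells, and Cd4 in 89.7% and 79.7% of the KO-labelled and WT CD4 cells. Median genes per cell were 2797 and 2919 in KO-labelled and WT CD8 cells, and 2650.5 and 2307 in KO-labelled and WT CD4 cells. Median estimated reads, in the same order, were 405993, 302276, 377286 and 210858, lower in the median WT cell of either type. The WT CD8 cells were spread more widely, with an upper quartile of 723226 reads against 537120 in KO-labelled CD8 cells. B2m or all of Cd3d, Cd3e and Cd3g, genes that every T cell should express, were missing from 3, 11, 1 and 7 cells in that order. The median cell of each group had a summed level of 0 for the B cell, NK, macrophage and class II marker lists, and of 8.18 to 10.4 FPKM for the melanoma list. Of that list, Tyr was above 0 in 95.9% of KO-labelled and 98.5% of WT CD8 cells, and in 94.9% and 96.2% of CD4 cells. Every other gene of the melanoma list was above 0 in under 10% of each group's cells, except Pmel in 10.1% of WT CD4 cells. At least 3 of the 6 markers of class II and dendritic cells were found in 7, 2, 5 and 1 cells in that order, with sums of up to 134083 FPKM in KO-labelled and 206745 FPKM in WT CD8 cells.

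In CD8 cells, all 4 receptors were found in fewer KO-labelled than WT cells, and their differences in RNA level were among the 5 lowest of all genes compared. Pdcd1 was above 0 FPKM in 21 of 74 KO-labelled cells (28.4%, 95% exact interval 18.5 to 40.1%) and in 41 of 67 WT cells (61.2%, 48.5 to 72.9%). Lag3 was found in 21 of 74 KO-labelled cells (28.4%, 18.5 to 40.1%) and 44 of 67 WT cells (65.7%, 53.1 to 76.8%). Havcr2, the scarcest of the 4, was found in 14 of 74 KO-labelled cells (18.9%, 10.7 to 29.7%) and 38 of 67 WT cells (56.7%, 44 to 68.8%). For each of these 3 genes the lowest cell of both groups was at 0. The median cell had 0 FPKM of Pdcd1 in KO-labelled and 602 FPKM in WT cells, with highest values of 8616 and 4554 FPKM. For Lag3 the median cell had 0 FPKM in KO-labelled and 198.67 FPKM in WT cells, and for Havcr2 0 and 8.12 FPKM. The groups overlap in the values of single cells, but for none of these 3 genes do the intervals of the KO-labelled and WT cells overlap. Tigit was the most widespread, in 40 of 74 KO-labelled cells (54.1%, 42.1 to 65.7%) and 55 of 67 WT cells (82.1%, 70.8 to 90.4%), again with intervals apart. The intervals cover counting error only, not differences between animals. A share lower by at least 20 percentage points, as all 4 showed, was seen for 3.24% of the 6441 genes above 0 in at least 20% of either group's cells.

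**Figure D1:**
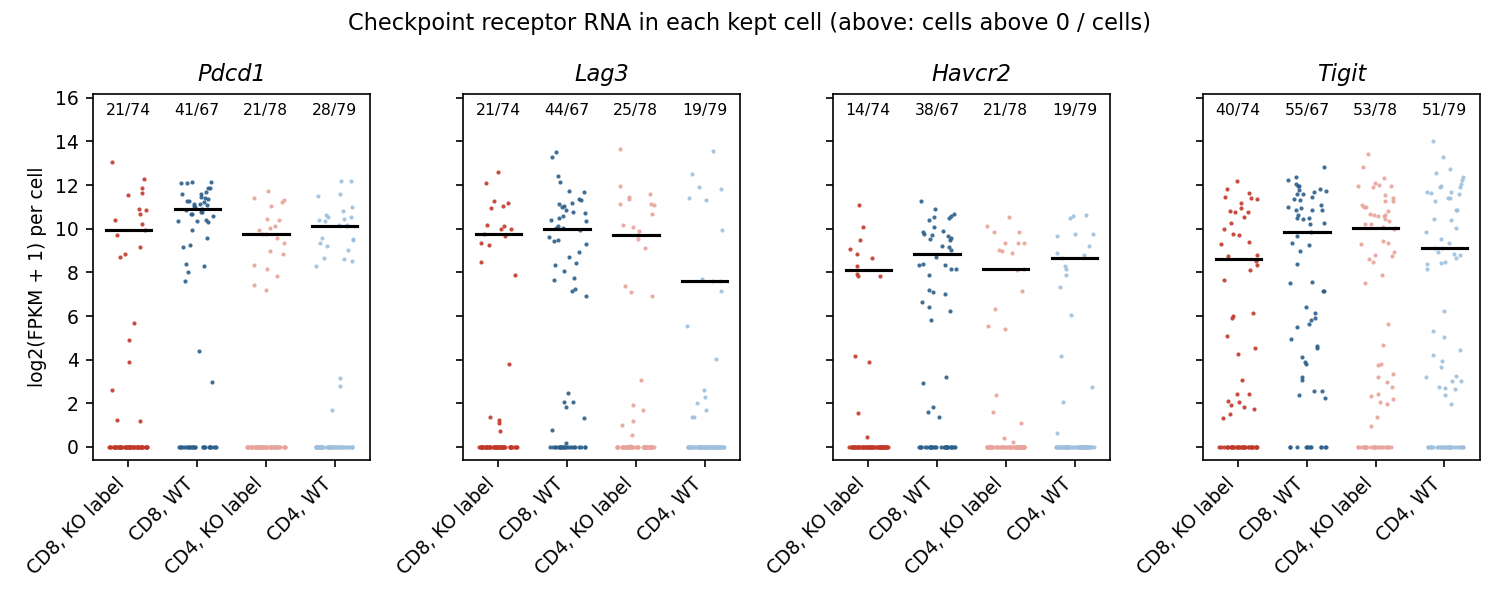
Each point is 1 kept cell, with log2(FPKM + 1) of the receptor on the vertical axis and the group on the horizontal axis; black bars are medians over cells above 0, and the fractions give cells above 0 over all cells. Havcr2 stands at 14 of 74 KO-labelled against 38 of 67 WT CD8 cells, while the CD4 groups stand at 21 of 78 and 19 of 79.

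The difference in level was of the same order in all 4 genes. Mean log2(FPKM + 1) of Pdcd1 was 2.42 ± 4.34 in KO-labelled CD8 cells and 6.34 ± 5.30 in WT CD8 cells (SD over cells, n = 74 and 67), a difference of -3.92. The differences were -3.40 for Lag3, -3.21 for Havcr2 and -2.99 for Tigit. All 4 were lower by at least 1 on this scale, as were 5.25% of the 6441 genes, and from the lowest difference upwards they ranked 1, 2, 3 and 5. The median difference of all these genes was -0.08. Because many cells are at 0, this scale mixes how many cells have the RNA with how much they have. Mean FPKM differed less, with ratios of KO-labelled to WT cells of 0.382 for Pdcd1, 0.339 for Lag3, 0.242 for Havcr2 and 0.420 for Tigit. As log2 of mean FPKM + 1, the differences were -1.38, -1.56, -2.04 and -1.25 in that order.

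On the log2 scale, cells that did have a receptor's RNA differed less. Their mean log2(FPKM + 1) differed by -1.82 for Pdcd1, -0.53 for Lag3, -0.94 for Havcr2 and -1.12 for Tigit. For Tigit, the ratio of medians among positive cells was 0.426 and the ratio of mean FPKM over all cells was 0.420. A median and a mean are unlike measures, so these 2 ratios do not show how share and level each contributed. Among Pdcd1-positive CD8 cells the median was 969 FPKM in KO-labelled cells (quartiles 49.6 and 1925) and 1896 FPKM in WT cells (1285 and 2726). For Lag3 the medians were 856 FPKM in KO-labelled and 1014 FPKM in WT cells, a ratio of 0.845. For Havcr2 they were 278.7 and 466.8 FPKM, and for Tigit 398 and 933 FPKM, in KO-labelled and WT cells. The quartile ranges of the KO-labelled and WT cells overlapped for all 4 genes. Among Tigit-positive cells, 10 of 40 KO-labelled and 6 of 55 WT cells lay at or under 10 FPKM, and the highest reached 4684 and 7309 FPKM. Among Lag3-positive cells, 4 of 21 KO-labelled and 7 of 44 WT cells lay at or under 10 FPKM, and the highest reached 6255 and 11879 FPKM. Above a stricter 100 FPKM, the share with Tigit was 32.4% of KO-labelled and 55.2% of WT CD8 cells.

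All 4 shares were also lower in KO-labelled CD8 cells when depth was set equal. Thinned to 100000 estimated reads, with 2 KO-labelled and 15 WT cells left out, the expected share with Pdcd1 was 26.5% in KO-labelled and 71.2% in WT cells. With Tigit it was 44.1% and 78.7%. Before thinning, the same cells stood at 29.2% and 71.2% with Pdcd1 and at 54.2% and 84.6% with Tigit. The Pdcd1 share in WT cells, 61.2% over all 67, thus rose through the cells left out. In 46 KO-labelled and 46 WT CD8 cells matched on genes above 0, Pdcd1 was found in 28.3% and 63%, Lag3 in 26.1% and 69.6%, Havcr2 in 19.6% and 54.3% and Tigit in 52.2% and 84.8%. The libraries lacking B2m or all Cd3 genes, 11 of them WT CD8, averaged 1.27 receptors per cell in that group, below its overall mean.

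In CD4 cells, the KO-labelled and WT groups did not separate. Pdcd1 was found in 21 of 78 KO-labelled cells (26.9%, 17.5 to 38.2%) and 28 of 79 WT cells (35.4%, 25 to 47%). Lag3 was found in 32.1% of KO-labelled and 24.1% of WT cells, Havcr2 in 26.9% and 24.1%, and Tigit in 67.9% and 64.6%. The intervals of the KO-labelled and WT cells overlap for each gene, which does not show that the groups are alike. Differences of mean log2(FPKM + 1) were -0.70 for Pdcd1, 0.79 for Lag3, -0.00 for Havcr2 and 0.21 for Tigit. None of the 4 passed a difference of 1, which 0.508% of 5318 genes did towards lower and 11.7% towards higher. The directions for Lag3, Havcr2 and Tigit were not stable within the groups. In libraries with odd numbers the share with Tigit was 61.1% in KO-labelled and 72.7% in WT cells, and in those with even numbers 73.8% and 54.3%. For Lag3 the difference in share was -5.05 percentage points among odd and 20.5 among even numbers, and 0 in cells matched on genes above 0. For Havcr2 it was -5.05 among odd and 10.95 among even numbers, and -7.02 in matched cells. Levels in Lag3-positive cells had medians of 833 FPKM in KO-labelled and 191.9 FPKM in WT cells, with quartiles of 7.39 and 2227 and of 4.53 and 2616, so both groups held cells with barely any and cells with much. The 5 highest Lag3 cells held 86.6% of all its FPKM in WT CD4 cells.

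Set against CD4 cells of the same label, CD8 cells are given for each label in turn. These comparisons use the same cells as those above, and the difference between the labels was not tested. In KO-labelled cells the shares in CD8 and CD4 had overlapping intervals for all 4 genes. Only Tigit passed a difference of 1 there, at -1.68 in CD8 minus CD4 (3.81% of 5951 genes were lower by as much). In WT cells all 4 had a higher mean log2(FPKM + 1) in CD8 than in CD4. The differences were 3.04 for Pdcd1, 4.04 for Lag3, 2.73 for Havcr2 and 1.52 for Tigit. Of 6200 genes, 19.8% were higher by at least 1. The share intervals were apart for Pdcd1, Lag3 and Havcr2 and overlapped for Tigit. Mean FPKM of Tigit was 1234 in WT CD8 and 1273 in WT CD4 cells. The size of this WT contrast depended on how depth was set equal and on which cells that left out. In 41 WT CD8 and 41 WT CD4 cells matched on genes above 0, Pdcd1 was found in 51.2% and 43.9%, Havcr2 in 41.5% and 34.1% and Lag3 in 58.5% and 34.1%. The mean Tigit difference turned to -0.76 in the matched cells. Thinned to 100000 estimated reads, the expected shares in WT CD8 and WT CD4 cells were 71.2% and 37.9% for Pdcd1, 69.2% and 19.7% for Lag3, 67% and 22.4% for Havcr2 and 78.7% and 58.7% for Tigit. This left out 15 WT CD8 and 10 WT CD4 cells. Before thinning, the same cells stood at 71.2% and 39.1%, 75% and 21.7%, 69.2% and 23.2%, and 84.6% and 63.8% for these genes in turn. Titles of the WT CD4 libraries carry the tag p3 and those of the other groups p2, with no meaning given. In every contrast with WT CD4 cells, that tag and the group cannot be told apart. Each group's titles also carry their own word: rabbit for KO-labelled CD8, cat for WT CD8, bird for KO-labelled CD4, dog for WT CD4. Title numbers run in a separate block per group. In every contrast, that of KO-labelled with WT CD8 cells included, word, number block and group cannot be told apart.

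Receptors occurred together in the same cells. All 4 were above 0 in 8 of 74 KO-labelled CD8 cells (10.8%, 4.78 to 20.2%) and in 32 of 67 WT CD8 cells (47.8%, 35.4 to 60.3%). In CD4 cells all 4 were found in 4 of 78 KO-labelled cells (5.13%, 1.41 to 12.6%) and 10 of 79 WT cells (12.7%, 6.24 to 22%). Multiplying the 4 shares as if the receptors were spread independently gives 0.609 KO-labelled and 12.5 WT CD8 cells, and 1.23 KO-labelled and 1.05 WT CD4 cells. Each group thus held more fully positive cells than the product. None of the 4 was found in 24 KO-labelled CD8, 8 WT CD8, 12 KO-labelled CD4 and 20 WT CD4 cells, with products of 14.1, 0.692, 9.07 and 10.4. The mean number of receptors per cell was 1.30 ± 1.30 in KO-labelled and 2.66 ± 1.51 in WT CD8 cells, and 1.54 ± 1.11 in KO-labelled and 1.48 ± 1.33 in WT CD4 cells (SD over cells). Cells with all 4 also had more genes above 0, with medians of 4095.5 and 3945 in KO-labelled and WT CD8 cells, against 2700.5 and 2495 in cells with none.

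**Figure D2:**
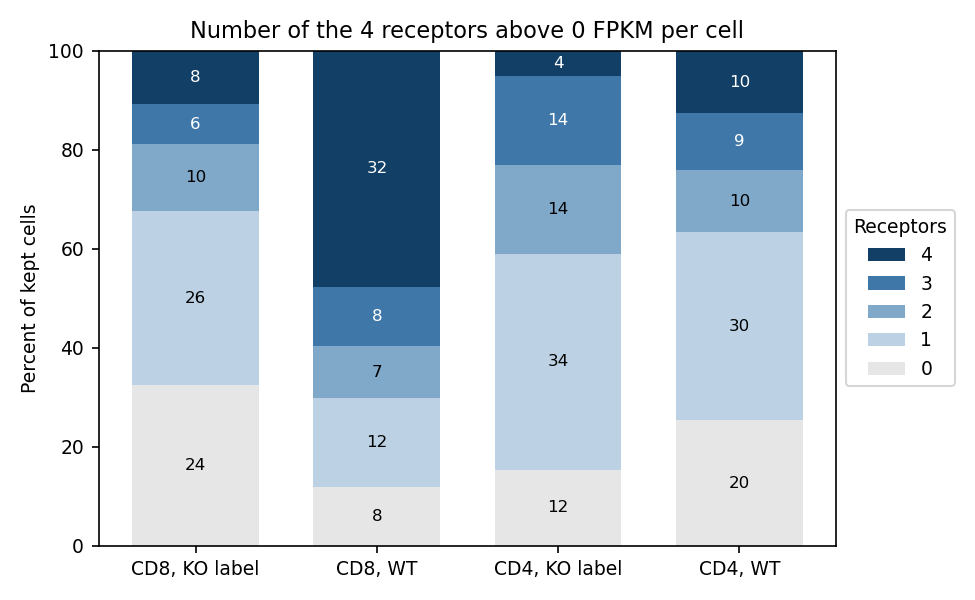
Stacked bars give the percent of kept cells of each group with 0 to 4 of the receptors above 0 FPKM, and the numbers in the bars are cells. The segment with all 4 receptors holds 32 of 67 WT CD8 cells, against 8 of 74 KO-labelled CD8 cells and 4 of 78 KO-labelled and 10 of 79 WT CD4 cells.

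When a cell had a single receptor, it was mostly Tigit, the most widespread of the 4 in each group. Tigit alone was found in 18 of the 26 KO-labelled CD8 cells with 1 receptor, 10 of 12 WT CD8 cells, 24 of 34 KO-labelled CD4 cells and 24 of 30 WT CD4 cells. The product of the shares for Tigit alone was 16.6, 3.17, 19.2 and 18.99 cells in the same order. Much of this pattern thus follows from the Tigit share itself, least so in WT CD8 cells. Cells with barely any Tigit count here too. At or under 10 FPKM lay 10 of the 40 Tigit-positive KO-labelled and 6 of the 55 WT CD8 cells. Pdcd1 alone was found in 2 KO-labelled and 0 WT CD8 cells, and in 7 KO-labelled and 4 WT CD4 cells. The combination of Lag3, Havcr2 and Tigit without Pdcd1 was found in 8 KO-labelled CD4 cells and in 2 WT CD4 cells, and in 1 KO-labelled and 2 WT CD8 cells. In KO-labelled CD4 cells it was the commonest set of 3.

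Tigit level followed company, and in CD8 cells the positive-cell medians of Pdcd1, Lag3 and Havcr2 were also higher with 2 or 3 other receptors. Some of the sets with 0 or 1 other held as few as 3 cells. The Lag3 medians in KO-labelled CD8 cells were nearly alike, at 907 FPKM with 2 or 3 others and 856 FPKM with 0 or 1. In WT CD4 cells the Pdcd1 median was lower with 2 or 3 others, at 763 against 1145 FPKM. In CD8 cells positive for Tigit with 2 or 3 other receptors, its median was 1881 FPKM in KO-labelled and 1727 FPKM in WT cells. With 0 or 1 other receptor, it was 45.9 FPKM in KO-labelled and 30.3 FPKM in WT cells. The median number of genes was also higher in the cells with more receptors, 3598 against 2761.5 in KO-labelled and 3769 against 2109 in WT cells, and the part of depth in this was not tested. In WT CD8 cells, 92.7% of 41 Pdcd1-positive and 23.1% of 26 Pdcd1-negative cells had Lag3. In KO-labelled CD8 cells, 66.7% of 21 Pdcd1-positive and 13.2% of 53 Pdcd1-negative cells had it, so the pair was seen together in both groups.

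Correlations across cells also took in the level. In KO-labelled CD8 cells, Spearman's rho of the 6 pairs lay between 0.43 (Pdcd1 with Havcr2) and 0.59 (Pdcd1 with Lag3) over 74 cells. In WT CD8 cells it lay between 0.63 (Havcr2 with Tigit) and 0.79 (Pdcd1 with Tigit) over 67 cells. Cells differ in depth, which all genes share, and the median rho of all genes with Pdcd1 was 0.05 in KO-labelled and 0.24 in WT CD8 cells. After adjustment of ranks for the number of genes, the 6 pairs lay between 0.33 and 0.56 in KO-labelled and between 0.33 and 0.64 in WT CD8 cells, against medians near 0. Pdcd1 with Tigit gave 0.51 in KO-labelled and 0.64 in WT CD8 cells, while Havcr2 with Tigit was the lowest pair in WT CD8 cells at 0.33. Among the 36 WT CD8 cells with both Havcr2 and Tigit, their unadjusted rho was 0.09. For every other pair, over the WT CD8 cells with both, it lay between 0.37 (Lag3 with Havcr2) and 0.62 (Lag3 with Tigit). For Pdcd1, Tigit ranked 4 among 5504 genes in KO-labelled cells and 1 among 6003 genes in WT cells by unadjusted rho. For Havcr2, Tigit ranked 35 among 5505 genes in KO-labelled and 77 among 6003 genes in WT cells. Tigit was also set beside genes found in a like share of cells, within 10 percentage points, 1193 in KO-labelled and 487 in WT cells. There it ranked 1 in KO-labelled and 1 in WT cells for Pdcd1, and 4 and 20 for Havcr2.

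**Figure D3:**
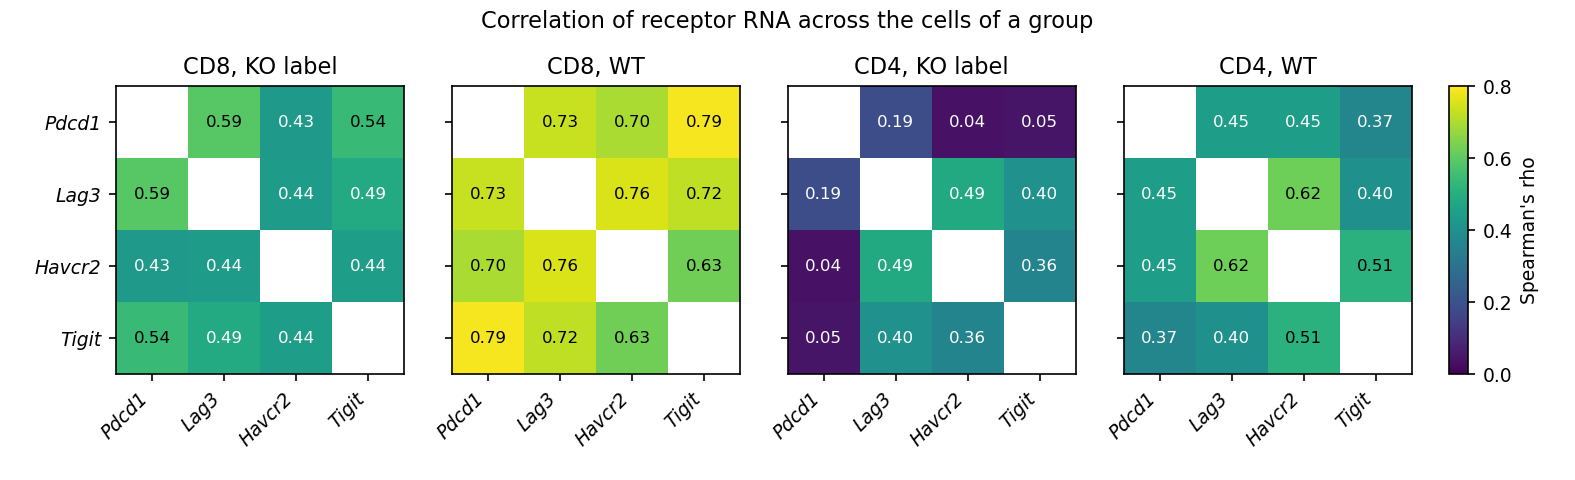
Each panel shows Spearman's rho of log2(FPKM + 1) for each pair of receptors across the kept cells of 1 group, with colour running from 0 to 0.8. In the panel of CD4 cells with the KO label, Pdcd1 has rho of 0.19, 0.04 and 0.05 with Lag3, Havcr2 and Tigit, while the other pairs lie between 0.36 and 0.49.

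Pdcd1 stood apart from the other 3 in KO-labelled CD4 cells. Its rho was 0.19 with Lag3, 0.04 with Havcr2 and 0.05 with Tigit over 78 cells, while Lag3 with Havcr2 gave 0.49. Among 5029 genes ranked by rho with Pdcd1, Lag3 was 450, Tigit 2314 and Havcr2 2437. In WT CD4 cells, rho of Pdcd1 was 0.45 with Lag3, 0.45 with Havcr2 and 0.37 with Tigit over 79 cells, and Lag3 with Havcr2 gave 0.62. Havcr2 was found in 28.6% of 21 Pdcd1-positive and 26.3% of 57 Pdcd1-negative KO-labelled CD4 cells. In WT CD4 cells it was found in 53.6% of 28 Pdcd1-positive and 7.84% of 51 Pdcd1-negative cells. The difference between KO-labelled and WT rho was not tested.

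Foxp3, the defining factor of regulatory T cells, split the CD4 cells unevenly for Pdcd1. Among CD4 cells with Foxp3 RNA, Pdcd1 was found in 8 of 39 KO-labelled cells (20.5%, 9.30 to 36.5%) and 18 of 30 WT cells (60%, 40.6 to 77.3%), with intervals apart. Among those without Foxp3 RNA, it was found in 13 of 39 KO-labelled cells (33.3%, 19.1 to 50.2%) and 10 of 49 WT cells (20.4%, 10.2 to 34.3%). The other receptors were found in more cells with than without Foxp3 under both labels. Lag3 was found in 46.2% and 17.9% of KO-labelled cells with and without Foxp3, and in 43.3% and 12.2% of WT cells. Tigit was found in 79.5% and 56.4% of KO-labelled and 96.7% and 44.9% of WT cells with and without Foxp3. Median genes were 2809 in KO-labelled and 2822 in WT cells with Foxp3, and 2500 and 2119 in those without. Whether the Pdcd1 difference itself depends on Foxp3 was not tested.

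In CD8 cells, the difference between KO-labelled and WT cells was seen in those without Tcf7, a factor of naive and stem-like T cells, while among those with it the intervals of the KO-labelled and WT cells overlapped for Pdcd1. Tcf7 was found in 55.4% of KO-labelled and 23.9% of WT CD8 cells. Among cells without it, the mean number of receptors was 1.61 in 33 KO-labelled and 3.18 in 51 WT cells, and Pdcd1 was found in 33.3% (18 to 51.8%) and 74.5% (60.4 to 85.7%). Among cells with it, the means were 1.05 in 41 KO-labelled and 1.00 in 16 WT cells, and Pdcd1 was found in 24.4% (12.4 to 40.3%) and 18.8% (4.05 to 45.6%). Median genes were 3035 in KO-labelled and 3216 in WT cells without Tcf7, and 2763 and 2592.5 in cells with it. The difference between cells with and without Tcf7 was not tested, and with 16 WT cells in 1 arm it is loosely set. Absence of RNA in a cell at this depth does not show that the gene was off.

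**Figure D4:**
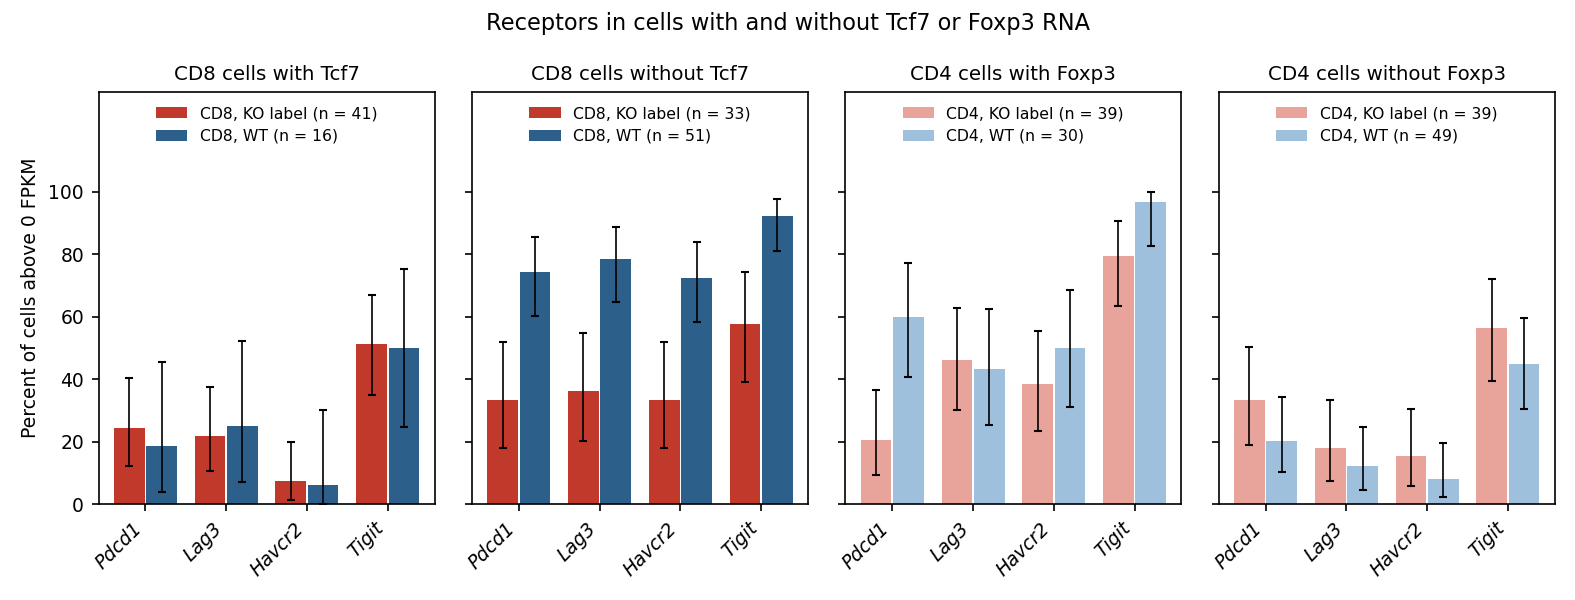
Bars give the percent of cells above 0 FPKM for each receptor, with exact 95% intervals, in CD8 cells with and without Tcf7 RNA and in CD4 cells with and without Foxp3 RNA. In CD8 cells without Tcf7, Pdcd1 stands at 33.3% of KO-labelled and 74.5% of WT cells, and in CD4 cells with Foxp3 at 20.5% and 60%.

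CD8 cells with cytotoxic or cycling genes held more receptors under both labels. CD8 cells with Gzmb, which encodes granzyme B, averaged 1.80 receptors in 25 KO-labelled and 3.66 in 38 WT cells. Those without Gzmb averaged 1.04 in 49 KO-labelled and 1.34 in 29 WT cells. Median genes with and without Gzmb were 2831 and 2782 in KO-labelled and 3769 and 2449 in WT cells. With Entpd1, which encodes CD39, an ectoenzyme of chronically stimulated CD8 cells, the means were 2.17 in 12 KO-labelled and 3.83 in 35 WT cells, and without it 1.13 and 1.38. Median genes with and without Entpd1 were 3796.5 and 2761.5 in KO-labelled and 3958 and 2461.5 in WT cells, and the part of depth in these splits was not tested. All 35 of those WT cells had Tigit, and 34 had Lag3. With the proliferation gene Mki67, the means were 2.00 in 12 KO-labelled and 3.38 in 26 WT cells, where median genes were 3596.5 and 4549, and without it 1.16 and 2.20, where median genes were 2770 and 2655. CD4 cells with Gzmb averaged 1.94 receptors in 33 KO-labelled and 2.36 in 22 WT cells, and those without 1.24 and 1.14.

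The genes whose RNA ran most like each receptor were ranked by the smaller of the KO-labelled and WT rho, leaving out the other receptors. In CD8 cells, over 4743 genes, Pdcd1 ran most like Nr4a2 (0.52), an immediate early gene of antigen receptor signalling, and Sdf4 (0.47). Lag3 ran most like the integrin gene Itgav (0.57), Nr4a2 (0.56) and Hsbp1 (0.51). Havcr2 ran most like the chemokine gene Ccl4 (0.57) and Rbpj (0.54), the DNA-binding effector of Notch signalling. Tigit ran most like Cd3g (0.68), a chain of the antigen receptor complex, Ptgdr (0.50) and Gimap7 (0.50). In CD4 cells, over 3815 genes, the leading gene was Bhlhe40 for Pdcd1 (0.34), followed by H2afz (0.32) and the AP-1 factor gene Batf (0.31). Lag3 ran most like Cst7 (0.51), Cd81 (0.50) and the chemokine receptor gene Ccr8 (0.49), and Havcr2 most like Hip1 (0.53), Ccr8 (0.50) and Capg (0.49). Tigit ran most like Ikzf2 (0.59), which encodes the regulatory T cell factor Helios, Ptgdr (0.57) and Pglyrp1 (0.50). In CD4 cells, Havcr2 would stand at 4 in this order for Lag3, while for Pdcd1 Havcr2 would stand at 1272 and Tigit at 1188. Cells share depth, so these values describe likeness only.

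RNA of the receptors' ligands was also read in these libraries. The PD-1 ligand genes Cd274 and Pdcd1lg2 were both higher in KO-labelled than WT CD8 cells, by 0.36 and 0.86 in mean log2(FPKM + 1), and in CD4 cells by 0.71 and 0.68. Pdcd1lg2 was found in 20.3% of KO-labelled and 4.48% of WT CD8 cells. Of the LAG-3 ligand genes, 3 of 6 were above 0 in at least 10% of either group of CD8 cells: H2-Aa (0.95) and H2-Ab1 (0.65) were higher and Lgals3 (-0.17) lower in KO-labelled cells. H2-Aa and H2-Ab1 are also on the list of class II and dendritic markers, of which at least 3 were found in 7 KO-labelled and 2 WT CD8 cells, and Cd74 of that list differed by 0.93. The part of those cells in the ligand values was not tested. In CD4 cells Lgals3 alone was measured at that level, with a difference of 1.08. Of the TIM-3 ligand genes, Lgals9 (-0.06) and Hmgb1 (-0.56) were lower in KO-labelled CD8 cells, and in CD4 cells they differed by -0.27 and 0.39. Pvr, which encodes the TIGIT ligand CD155, differed by 0.22 in CD8 and 0.13 in CD4 cells, and the other TIGIT ligand genes were at or near 0. The receptors that share those ligands with TIGIT differed by less than 1: Cd226 by 0.09 and Cd96 by 0.17 in CD8 cells, and by 0.53 and 0.22 in CD4 cells.

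Genes that act with the receptors went both ways, beside a median difference over all genes of -0.08 in CD8 and 0.25 in CD4 cells. Of 12 signalling partners, 7 were higher and 5 lower in KO-labelled CD8 cells, with a median difference of 0.20. Ptpn6, which encodes the phosphatase SHP-1, was higher by 1.73 and the kinase gene Lck by 1.28, while the adaptor gene Sh2d1a differed by -2.13 and the ubiquitin ligase gene Cblb by -0.99. In CD4 cells 7 were higher and 5 lower (median 0.12), with Ptpn6 at 1.05, Zap70 at 0.72, Cblb at -0.64 and Fyn at -0.43. Of 21 measured transcription factors, 11 were higher and 10 lower in KO-labelled CD8 cells (median 0.01). Tcf7 was higher by 2.54 and Nr4a1 by 1.60, while Tox, a factor of the exhausted state, differed by -2.34 and Eomes by -1.26. In CD4 cells 14 of 20 were higher (median 0.30), led by Nr4a1 (1.96) and Nr4a3 (1.55), while Tcf7 (-0.76) and Ikzf2 (-0.67) were lower. Of 13 genes listed with other coinhibitory receptors, among them the ectoenzyme genes Entpd1 and Nt5e, 4 were higher and 9 lower in KO-labelled CD8 cells (median -0.47). Entpd1 (-2.60) and Cd5 (-1.42) were lower, Klrc1 (1.74) and Nt5e (1.56) higher, and Ctla4 differed by -0.49. In CD4 cells 4 of 9 were higher and 5 lower (median -0.22), with Cd200r1 at 0.54, Nt5e at 0.30, Cd101 at -0.46 and Btla at -0.34.

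The population libraries, each made from many cells at once, showed smaller differences. In them, fewer cells with a receptor and less RNA per cell cannot be told apart. Pdcd1 was at 1286 FPKM in the KO-labelled and 1834 FPKM in the WT CD8 library, Lag3 at 924 and 1102, Havcr2 at 320 and 511, and Tigit at 707 and 1325. All 4 were lower in the KO-labelled library, with differences of -0.51, -0.25, -0.67 and -0.90 on the log2(FPKM + 1) scale. None was lower by 1, which 21.5% of 12547 genes were. The KO-labelled CD8 library also held class II and dendritic markers at a summed 20956 FPKM, against 164.01 FPKM in the WT CD8 library, and the WT library held melanoma markers at 14658 FPKM, against 45.9 FPKM in the KO-labelled one. Their part in the receptor values was not tested.

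**Figure D5:**
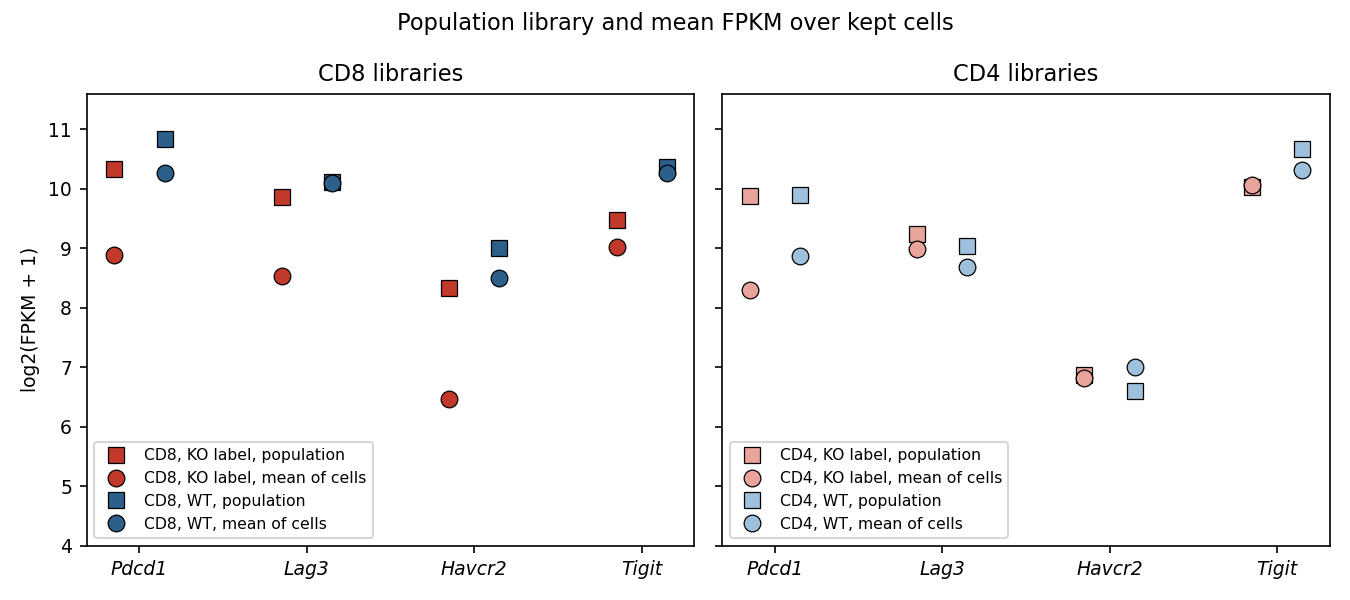
Squares give log2(FPKM + 1) in each population library and circles the log2 of mean FPKM + 1 over the kept cells of the same group. In CD8, the KO-labelled square for Havcr2 lies 1.86 above its circle, and the WT square lies 0.50 above.

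The gap between population library and cells was wider with the KO label than in WT CD8 for all 4 genes. This restates that the population libraries differed less than the means of the cells, and is no separate observation. In KO-labelled CD8, the population library lay above the mean of the cells by 1.45 for Pdcd1, 1.32 for Lag3, 1.86 for Havcr2 and 0.45 for Tigit. In WT CD8 it lay above by 0.58, 0.02, 0.50 and 0.10 for the same genes. In the CD4 libraries Pdcd1 was at 940 FPKM with the KO label and 953 FPKM in WT, Lag3 at 602 and 527, Havcr2 at 115.5 and 95.8, and Tigit at 1048 and 1629. None of these CD4 differences reached 1 on the log2 scale, which 23.1% of 11932 genes passed towards lower and 17.6% towards higher. Of the 4 genes, Havcr2 differed most between the CD8 and CD4 libraries, by 1.46 on that scale with the KO label and by 2.40 in WT. In WT, Lag3 also passed 1, at 1.06, while Pdcd1 (0.94) and Tigit (-0.30) did not. The share of all genes past 1 between CD8 and CD4 libraries is not given here, so these differences are not set against it.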

How the data were processed

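Smart-seq2, a full-length cDNA method, was used on single T cells and on populations of T cells, with 21 cycles of cDNA amplification and no molecular identifiers described, per the labels' protocols. The authors deposited FPKM values that carry a TMM scaling between libraries, per the labels. Bowtie, RSEM and mm10 are named in the submitters' processing notes; their versions and the gene annotation are not given in the sources used here. FPKM values do not state depth, and RSEM shares reads among similar transcripts, so low values above 0 need not be reads of that gene alone.

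All 378 columns were mapped by title and 0 were left unmapped. No 2 columns were identical. Nothing in the labels says how many animals gave the cells, so each genotype and cell type counted as 1 sample, with no test. Cells were kept when 1000 genes or more were above 0; no doublet caller was run. A receptor was called present above 0 FPKM, levels were averaged as log2(FPKM + 1), and shares carry exact Clopper-Pearson 95% intervals. Called differences are those of at least 1 on the log2 scale among genes above 0 in at least 20% of either group's cells (in population libraries, at log2(FPKM + 1) of at least 1 in either library). Correlations are Spearman's rho within a group, with no p. Depth was estimated from the step that 1 read makes in low FPKM values, with transcript lengths of GENCODE M21. In a simulation of 60 libraries over 21777 genes, the estimate was 0.997 of the true depth at the median, and 78.3% of libraries came within 25%. The simulation drew whole reads and used the same transcript lengths to draw and to estimate, without the sharing of reads by RSEM. In the kept cells, the group medians of low values lying near a whole number of reads were 56.2 to 58.9%. The error of the estimate in the real libraries is therefore not known. The depth of population libraries is not given.

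Named were the 4 receptors, Il27ra, the lineage and quality genes, at least 2 genes of every list, those that differed most in either direction, and the 3 genes most like each receptor, of which 1 gene is not reported here. Receptors, lists and splits were chosen with earlier results of these data known. Python 3.11.15, numpy 2.4.6, pandas 2.3.3, scipy 1.17.1 and matplotlib 3.10.9 were used.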

Additional observations from a re-analysis of the deposited data

Results flagged for a closer look

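Lag3, Havcr2 and Tigit had KO minus WT share differences of opposite sign in CD8 and CD4 cells, with 1 sample behind each; the difference between CD8 and CD4 was not tested. For Lag3 it was -37.3 percentage points in CD8 and 8.001 in CD4 cells, for Havcr2 -37.8 in CD8 and 2.87 in CD4 cells, and for Tigit -28.0 in CD8 and 3.39 in CD4 cells. The CD4 values lie within overlapping intervals of the KO-labelled and WT shares, and all 3 were negative among odd library numbers, at -5.05 for Lag3, -5.05 for Havcr2 and -11.6 for Tigit.

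Among the WT CD8 libraries left out for having under 1000 genes, Lag3 was above 0 in 6 of 27 (22.2%, exact interval 8.62 to 42.3%) and Tigit in 6 of 27 (22.2%). A count of 0 would allow up to 11.1%, which lies within that interval. These libraries had a median of 370 genes. Pdcd1 was found in 0 of the 27 and Havcr2 in 2.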

How the results depend on the processing

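In CD8 cells, KO-labelled cells had the lower share of each receptor under 11 alternatives (44 values, from -49.7 to -15.3 percentage points) and the lower mean log2 level in another 44 values (-5.03 to -1.25). These alternatives were other filters on genes, cells matched on genes above 0, libraries lacking B2m or Cd3 genes or holding other-lineage markers left out, odd or even library numbers, stricter FPKM thresholds (for levels, other pseudocounts and scalings) and, for shares and chosen after seeing the data, thinning and a minimum of 5 estimated reads. The share with all 4 receptors differed by -45.9 to -27.7 percentage points and the mean number of receptors by -1.62 to -1.22. In CD4 cells, Tigit differed in share by -11.6 percentage points among odd and 19.5 among even library numbers, Lag3 by -5.05 and 20.5 and Havcr2 by -5.05 and 10.95; in cells matched on genes above 0 they differed by 0, 0 and -7.02. The mean number of receptors differed by -0.33 among odd and 0.45 among even numbers. For CD8 minus CD4 in WT cells, matching on genes above 0 moved the share differences to 7.32 percentage points for Pdcd1, 24.4 for Lag3 and 7.32 for Havcr2, that of cells with all 4 to 12.2, and the mean number of receptors to 0.44; Tigit's mean log2 difference reversed to -0.76, and to -0.045 as the log2 of mean FPKM. For CD8 minus CD4 in KO-labelled cells, the mean number differed by -0.37 among even library numbers. With no filter on low values, the percent of genes lower by at least 1 was 1.47 in CD8 and 0.120 in CD4 cells for KO minus WT, and 5.40% were higher for CD8 minus CD4 in WT cells. The cause was not tested. The Foxp3-positive CD4 difference in Pdcd1 stayed between -46.7 and -36.2 percentage points under 10 alternatives chosen after seeing the data, and that in mean receptors of CD8 cells without Tcf7 between -2.11 and -1.38. Of the 48 correlations recomputed with at least 2000 genes or without libraries lacking B2m or Cd3 genes, all lay within 0.15 of the value given. No paired analysis was possible because each genotype and cell type has 1 sample and the title numbers are never shared. Depth limits the shares: a receptor at 0 in a cell may be missed RNA.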
